A study of Mus musculus with 16 samples.

Results

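RNA crosslinked to CTCF was compared between undifferentiated female mouse embryonic stem (ES) cells and the same kind of cells after 3 days of differentiation. The comparison used all 4 UV-crosslinked CLIP libraries of the series, of 16 samples in all. Day 0 cells (2 libraries) grew attached to the dish with LIF, the cytokine that holds mouse ES cells in the undifferentiated state. Day 3 cells (2 libraries) grew for 3 days unattached and without LIF. Cells of both days carried the strain label CAST/Ei x 129/Sv/Jae and were irradiated with UV light before lysis, and RNA was recovered from nuclear lysates with anti-FLAG M2 beads. The labels do not say how the tagged protein was expressed, whether the cells were 1 clone, or whether the replicates were separate cultures. The p-values below therefore measure only the spread between these libraries, which may be technical. CLIP libraries made without UV were not analysed here, so no background level stands beside the values.

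CTCF is a zinc-finger protein known for binding DNA at insulators and at the borders of chromatin domains, where it halts cohesin. It also binds RNA, and RNA contacts have been linked to its self-association and to its placement on chromatin. CLIP fixes such contacts with UV light, trims the RNA and sequences what stays attached to the purified protein, so the amount recovered from a transcript depends both on binding and on how much of that transcript the nucleus holds. When mouse ES cells lose LIF, genes of the naive pluripotent state such as Nanog and Zfp42 are shut down, while genes of the next, formative state such as Fgf5, Otx2 and Dnmt3b are switched on.

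The CLIP level of a transcribed region is given here as the bases that same-strand peaks cover in that region per Mb that peaks cover in the whole library. It is not divided by the length of the region. The replicate 1 lists were the shorter ones, with 114016 peaks at day 0 and 106382 at day 3. The replicate 2 lists had 213181 and 165695 peaks and reached lower scores. All lists covered 4.71 to 8.30 Mb, and their read depth is unknown. Between 87.1% and 88.9% of peak bases lay in same-strand transcribed regions. Of 42918 regions, 16344 had a peak in any library, 12325 in at least 2 libraries and 7682 in all 4. Over those 7682 regions the levels of the day 0 libraries had a Spearman rho of 0.842 and those of the day 3 libraries 0.781. Day 3 replicate 1 had the lowest values with the others (0.751 to 0.782). The highest value lay across days, at 0.846 between day 0 replicate 2 and day 3 replicate 2. Rank correlation thus did not group the libraries by day. RNA-seq of nuclear lysate, with 1 library a day, gave FPKM 75.6 and 69.4 for Pou5f1, the central ES cell factor, at day 0 and day 3. It gave 27.7 and 9.23 for Nanog, and 4.60 and 31.5 for Dnmt3b. Collagen genes that mark fibroblasts, which often serve as feeder cells, were also present at day 0 (Col1a1 14.1 and 1.02, Col1a2 19.4 and 1.31).

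In 9 of 20 pluripotency genes both day 3 libraries lay below both day 0 libraries, and in 4 of 5 tested early differentiation genes both lay above, but no region passed the test across the genome. Of 12325 regions with peaks in at least 2 libraries, limma called 0 (0%) at the 0.05 threshold after Benjamini-Hochberg adjustment, and the lowest adjusted p was 0.662. Without adjustment, 899 regions (7.29%) had p under 0.05, 438 of them higher and 461 lower at day 3. Leaving out 1 library gave 377 calls without day 3 replicate 2, 56 without day 3 replicate 1, 9 without day 0 replicate 1 and 0 without day 0 replicate 2. Both day 3 libraries lay above both day 0 libraries in 2226 regions (18.1%) and below both in 2236 (18.1%), and these shares are the background for the gene lists that follow. The lists and their members were chosen with earlier results of these data known. Their counts and medians are therefore descriptions and not independent of the values. In bulk samples, less CLIP because fewer cells expressed a gene cannot be told apart from less CLIP per cell.

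**Figure D1:**
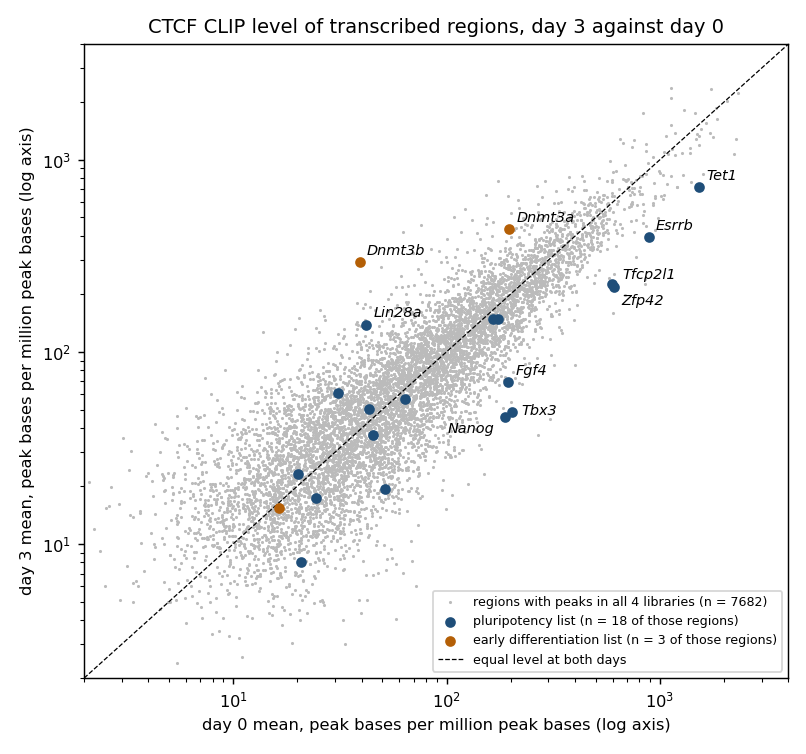
Mean CLIP level at day 3 against day 0 for 7682 regions with peaks in all 4 libraries, on log axes, in peak bases per Mb of peaks. Blue points are pluripotency genes, orange points early differentiation genes and the dashed line marks equal levels. Nanog, Tbx3, Zfp42 and Tfcp2l1 lie below the dashed line and Dnmt3b above it. Regions outside these lists, such as Lama1 and Vangl2, lie further below the line.

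Of 21 pluripotency genes, 20 matched a region and were tested. In 9 of the 20 both day 3 libraries lay below both day 0 libraries, and in 2 both lay above. The median log2 difference, day 3 minus day 0, was -1.16, against -0.01 over all 12325 regions tested, and 16 of 20 values were negative. Summed over the 20 regions, the CLIP level was 5145 and 4781 at day 0 against 2214 and 2698 at day 3, without overlap. None passed limma, and 7 had an unadjusted p under 0.05.

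Nanog (chr6:122657586-122664651, plus strand), a homeodomain factor of the naive state, had 175 and 202 peak bases per Mb at day 0 and 32.0 and 59.4 at day 3. Both day 3 libraries were thus well below both day 0 libraries, with a log2 difference of -2.08 ± 0.45 (SE, 2 libraries a day). Zfp42 (chr8:44380422-44392529, minus strand), also called Rex1 and widely used as a marker of naive ES cells, had 675 and 537 at day 0 and 160 and 275 at day 3. Its difference was -1.52 ± 0.35, again without overlap. Esrrb (chr12:87762555-87863273, plus strand), an orphan nuclear receptor that sustains self-renewal, had 791 and 977 against 238 and 555 (-1.27 ± 0.42). The adjusted p in limma was 0.662 for each of these genes.

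Tfcp2l1, Tbx3 and Fgf4 showed the same arrangement of libraries. Tfcp2l1, a transcription factor that acts downstream of LIF signalling, had 687 and 503 at day 0 and 98.2 and 350 at day 3 (-1.66 ± 0.58). Tbx3, a T-box factor of the naive state, had 233 and 172 against 14.2 and 83.3 (-2.49 ± 0.80). Fgf4, the growth factor that drives ES cells out of the naive state, had 228 and 161 against 36.1 and 103 (-1.63 ± 0.56). In all 3, replicate 1 was the lower of the day 3 libraries. Tet1, an enzyme that oxidises 5-methylcytosine, had 1521 and 1537 at day 0 and 824 and 609 at day 3 (-1.11 ± 0.26). This was the highest CLIP level of the list, with no division by region length. Its day 0 libraries nearly coincided, and the lower day 3 library was replicate 2.

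Members with few peaks gave looser values. Klf4, a reprogramming factor, had 26.2 and 37.5 at day 0 against 0 and 8.23 at day 3, and Utf1, a chromatin-associated factor of pluripotent cells, had 18.3 and 23.2 against 8.49 and 7.64. Neither pair of days overlapped, though the differences had standard errors above 1 (-3.41 ± 1.60 and -1.26 ± 1.15). The list did not move as a block. Pou5f1, which stays on when cells leave the naive state, had 78.7 and 48.7 at day 0 and 38.8 and 75.1 at day 3, with overlapping days (-0.19 ± 0.57). Lin28a, an RNA-binding protein that blocks let-7 maturation, was higher in both day 3 libraries (55.5 and 28.2 against 219 and 57.6, 1.48 ± 0.73), and so was Sall4, a zinc-finger factor (35.0 and 27.0 against 58.3 and 63.6, 0.96 ± 0.56). Days also overlapped for the other 8 members, which were Klf2, Tdgf1, Prdm14, Nr0b1, Dppa4, Dppa5a, Tcl1 and the miR-290 cluster transcript.

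The miR-290 cluster makes the most abundant microRNAs of mouse ES cells from 1 primary transcript. Several of its mature forms share a seed, the bases 2 to 8 that pair with targets, and are shown because the transcript is the microRNA member of the list (RefSeq sequences, GRCm38.p6 table, seed in capitals):
mmu-miR-291a-3p: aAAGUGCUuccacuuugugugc
mmu-miR-294-3p: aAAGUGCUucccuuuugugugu
mmu-miR-295-3p: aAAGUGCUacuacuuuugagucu
RefSeq names the host transcript D7Ertd143e, which matched a pair of neighbouring regions on the plus strand of chromosome 7. The first (chr7:3217847-3219910) had 197 and 150 peak bases per Mb at day 0 and 157 and 141 at day 3. The second (chr7:3220021-3221346) had 91.5 and 50.5 against 78.9 and 66.9. Days overlapped in both pieces of the precursor, with differences of -0.21 ± 0.33 and 0.09 ± 0.49. The RNA-seq list of day 0 did not hold either region, so no RNA difference stands beside them.

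**Figure D2:**
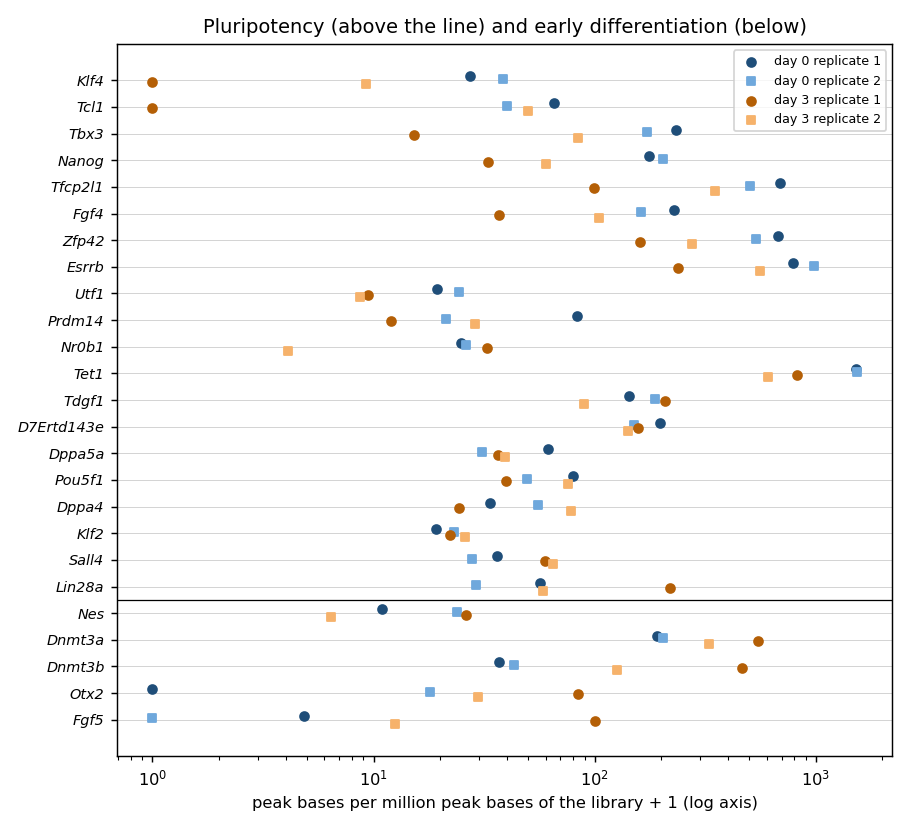
CLIP level in each of 4 libraries, in peak bases per Mb of peaks plus 1 on a log axis, for 20 pluripotency genes and 5 early differentiation genes, ordered by log2 difference within each list. Blue marks are day 0 and orange marks day 3, circles replicate 1 and squares replicate 2. In Nanog, Zfp42, Esrrb, Tet1 and Dnmt3b the days do not overlap, while Pou5f1 and D7Ertd143e overlap.

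Of 13 early differentiation genes, 6 matched a region and 5 could be tested. In 4 of the 5 both day 3 libraries lay above both day 0 libraries, and in none below. Dnmt3b (chr2:153474907-153513466, plus strand) and Dnmt3a, the de novo DNA methyltransferases, had the most peaks. Dnmt3b had 36.0 and 42.2 peak bases per Mb at day 0 and 461 and 126 at day 3 (2.60 ± 0.64), and Dnmt3a had 191 and 203 against 544 and 326 (1.09 ± 0.34). In both, day 3 replicate 1 was the higher library. Fgf5, a growth factor that marks the epiblast after implantation, had 3.86 and 0 at day 0 and 99.3 and 11.5 at day 3. Otx2, a homeodomain factor that opens enhancers of the formative state, had 0 and 17.0 against 82.7 and 28.7. These low levels gave wide errors (4.0 ± 1.73 and 3.55 ± 1.66), and none of the 4 passed limma (adjusted p = 0.662). The fifth gene, Nes, the intermediate filament of neural progenitors, overlapped between days (9.97 and 22.9 against 25.2 and 5.44). Markers of other lineages carried little CLIP at either day: 4 matched primitive endoderm genes summed to 6.51 and 9.64 at day 0 and 12.9 and 32.5 at day 3, and Foxa2 was at 0 in every library. Of the mesoderm genes, Mixl1 was at 0 in every library, and T had 16.5 in day 3 replicate 1 and 0 in the other 3.

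Ranking by p brought forward a second group of genes, most of them outside the lists. The 12 higher regions with the smallest p among those with peaks in all 4 libraries were Dpp6, Cachd1, Pnpla7, Runx1t1, Pdzd4, Eno1, Mkrn1, Nos1ap, 2610307P16Rik, G2e3, Gpi1 and Bcar3. Dpp6 (chr5:27143697-28054045, plus strand), a subunit of neuronal potassium channels in a very long gene, had 138 and 167 peak bases per Mb at day 0 and 718 and 593 at day 3 (2.1 ± 0.29). Cachd1, which modulates calcium channels, had 75.4 and 75.5 against 580 and 332 (2.52 ± 0.37). Day 3 levels were 6.04-fold (Cachd1) and 4.31-fold (Dpp6) those of day 0 by group means. Runx1t1, a transcriptional corepressor, had 56.5 and 65.2 against 258 and 235 (2.00 ± 0.35), with libraries of a day close to each other. Mkrn1, a ubiquitin ligase that binds RNA, had 230 and 200 against 700 and 527 (1.5 ± 0.29). Eno1 and Gpi1, enzymes of glycolysis, had 44.9 and 42.9 against 165 and 248 (2.18 ± 0.41) and 142.97 and 204.64 against 487 and 1060 (2.06 ± 0.43). In both, day 3 replicate 2 was the higher library, unlike Dnmt3b or Fgf5. The other 6 had day 3 levels 2.87-fold to 4.69-fold those of day 0.

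The 12 lower regions were Yes1, Trps1, Lama1, Kcnh7, Vangl2, Nanog, Zfp42, Pdzd8, Tet1, Glb1 and 2 regions with no name. Thus 3 of the 12 were members of the pluripotency list. Yes1 (chr5:32913258-32989430, plus strand), a Src-family kinase that acts in LIF signalling, had 672 and 697 at day 0 and 144 and 250 at day 3 (-1.85 ± 0.34). Trps1, a GATA-type repressor, had 749 and 795 against 298 and 326 (-1.31 ± 0.25). Lama1, a laminin chain of the basement membrane, had 392 and 217 against 25.7 and 63.8 (-2.82 ± 0.55). Vangl2, a core protein of planar cell polarity, had 183 and 117 against 30.3 and 16 (-2.68 ± 0.56), and Kcnh7, a potassium channel, had 130 and 121 against 23.1 and 17.8 (-2.57 ± 0.51). An unnamed minus-strand region on the X chromosome (chrX:100424203-100507121) had 842 and 860 against 151 and 299, and one on chromosome 7 (chr7:15116003-15208426, minus strand) had 165 and 125 against 30.8 and 31.7. Days did not overlap for any of these 24 regions, which the ranking makes likely, so the values are descriptions. Every one had an adjusted p of 0.662 in limma.

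**Figure D3:**
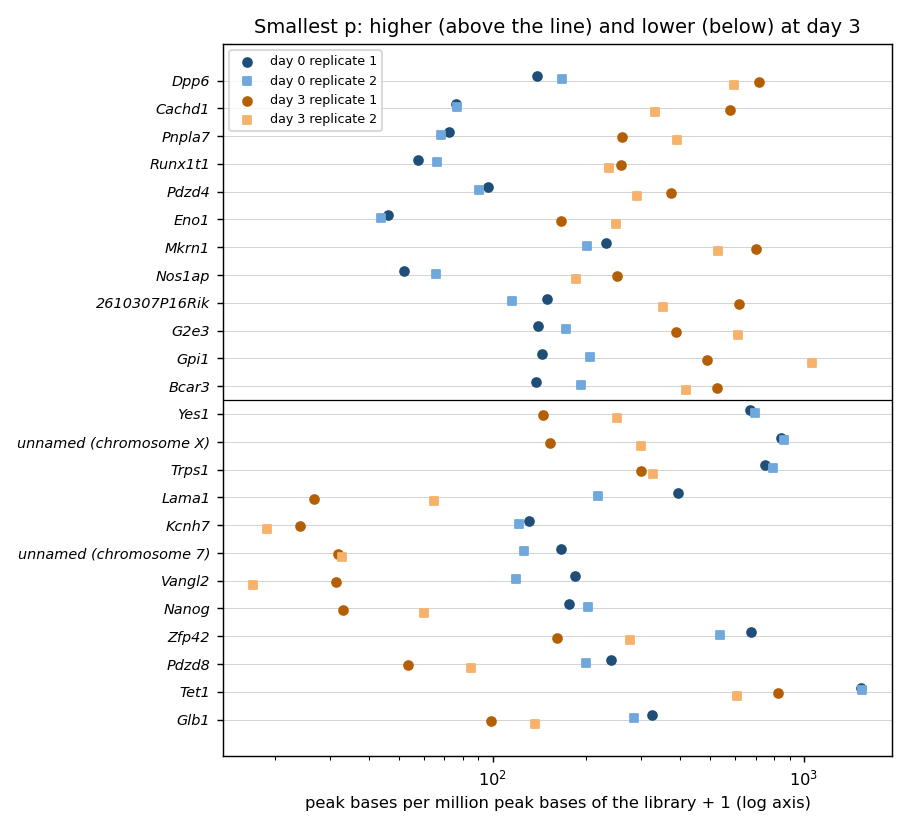
CLIP level in each library, in peak bases per Mb of peaks plus 1 on a log axis, for the 12 higher and 12 lower regions with the smallest p in the region test, drawn as in the plot of pluripotency genes. Day 3 of Gpi1 spans 487 to 1060, while the days of Runx1t1, Trps1 and Kcnh7 form tight pairs.

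The regions with the highest CLIP level were mostly those of long genes. Since the level is not divided by length, this ranking favours long regions by construction. Of the top 12, 3 lay higher and 3 lower without overlap, and 4 had an unadjusted p under 0.05. The top 12 by mean over the 4 libraries were Exoc4, Rian, Ptprg, Jarid2, Immp2l, Rbpms, Rad51b, Kat6b, Meg3, Smyd3, Magi1 and an unnamed plus-strand region (chr2:20431674-20732151). Exoc4, a subunit of the exocyst in a gene of 724895 bp, had 2424 and 2210 peak bases per Mb at day 0 and 2262 and 2179 at day 3. Jarid2, a cofactor of Polycomb complex PRC2, had 1851 and 1826 against 2027 and 1685. Neither differed beyond the spread of its libraries. Kat6b, a histone acetyltransferase, was lower at day 3 in both libraries (2184 and 2272 against 892 and 1255, -1.07 ± 0.26), and so was Immp2l, a mitochondrial peptidase (2342 and 2209 against 1109 and 1449, -0.84 ± 0.25). Rbpms, an RNA-binding protein, was higher in both (1169 and 1085 against 3054 and 1653, 1.00 ± 0.33). All 3 had an adjusted p of 0.662 in limma.

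Among 11 nuclear and imprinted long noncoding RNAs, 8 were tested, 2 lay higher and 1 lower without overlap, and the median difference was 0.15. Neat1, the scaffold of paraspeckles (chr19:5824708-5845478, minus strand), was the lower one, with 1963 and 1203 at day 0 against 769 and 918 at day 3 (-0.87 ± 0.31). Its neighbour Malat1, a nuclear speckle RNA, overlapped (1143 and 714 against 1207 and 869, 0.18 ± 0.33). Firre, an X-linked RNA that carries many CTCF sites in its gene, had 465 and 473 against 546 and 546, a difference of 0.22 ± 0.25. Meg3 and Rian, imprinted RNAs of 1 locus on chromosome 12, split by replicate at day 3. Meg3 had 1641 and 1273 at day 0 and 2498 and 988 at day 3, and Rian 2234 and 1869 against 2947 and 1089. Day 3 replicate 1 was the highest and replicate 2 the lowest of the 4 libraries for both RNAs, so that without day 3 replicate 2 the differences were 0.79 and 0.53, and without day 3 replicate 1 they were -0.55 and -0.91. The median of the list was likewise -0.36 without day 3 replicate 1 and 0.56 without day 3 replicate 2.

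Genes for CTCF and cohesin gave a median of -0.14 over 10 tested members, with 1 higher and 4 lower without overlap. Ctcf itself had 237 and 186 peak bases per Mb at day 0 and 189 and 181 at day 3, with overlap (-0.18 ± 0.31). Stag2, a cohesin subunit encoded on X, was the higher member (247 and 210 against 623 and 374, 1.08 ± 0.34), whereas its paralog Stag1 was among the lower ones (747 and 734 against 641 and 532). RNA-binding and splicing proteins had a median of -0.17 over 13 members, with 1 higher and 6 lower. Among the latter was the helicase Ddx5 (213 and 233 against 183 and 74.9, -0.92 ± 0.47). Chromatin regulators had a median of -0.08 over 12 members, with 2 higher and 3 lower, and Uhrf1, which guides maintenance DNA methylation, was the lowest (204 and 136 against 62.6 and 94.5, -1.11 ± 0.42).

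Long X-linked genes had a median of -0.09 over 8 tested members, with 1 higher and 2 lower. Huwe1, a very large ubiquitin ligase, had 1587 and 1521 at day 0 and 1392 and 1492 at day 3 (-0.11 ± 0.23). Bcor, a subunit of Polycomb complex PRC1.1, was the higher one (66.7 and 94.2 against 245 and 149, 1.26 ± 0.41). Host transcripts of small nucleolar RNAs had a median of -0.18 over 11 members, with 2 higher and 1 lower, and widely expressed reference genes had 0.08 over 8, with 1 in each direction. No member of these 7 lists passed limma.

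**Figure D4:**
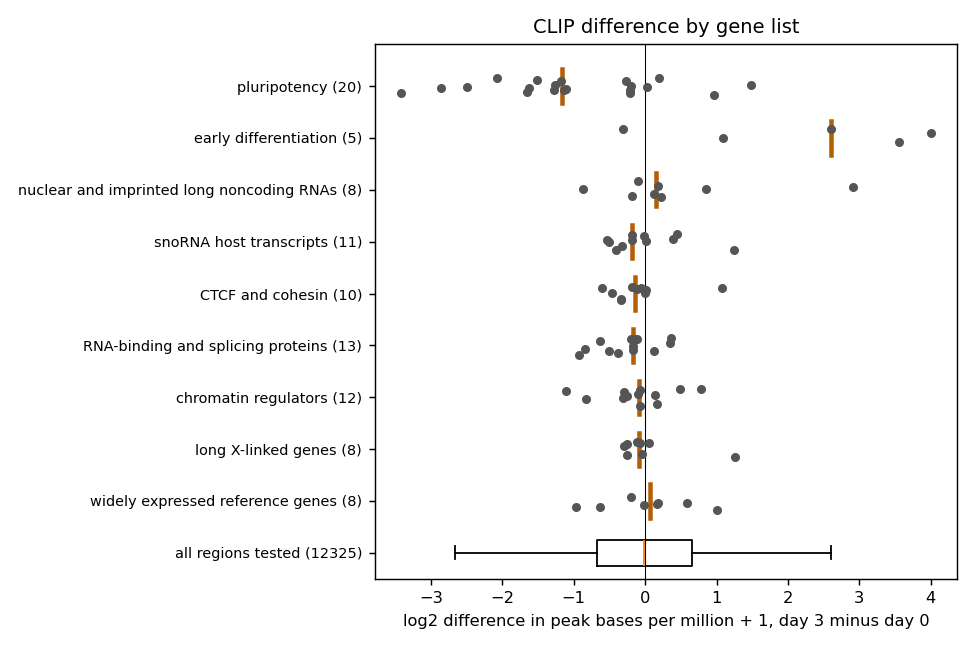
Log2 difference in CLIP level, day 3 minus day 0, for the tested members of 9 gene lists (grey points, spread vertically for clarity) with the median of each list as an orange bar. The box at the bottom shows the quartiles and the 5th to 95th percentiles of all 12325 regions tested. Medians are -1.16 for pluripotency and 2.60 for early differentiation, and lie between -0.18 and 0.15 for the other 7 lists.

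Some regions carried peaks in both libraries of 1 day and in neither of the other. There were 424 such regions at day 0 and 301 at day 3, of 16344 with a peak in any library. The order turned round when each list was cut to the same number of highest scored peaks, with 380 at day 0 and 418 at day 3. The levels of the 424 and 301 regions were low, with medians of 10.3 and 11 peak bases per Mb. Named regions among the highest, chosen after their values were seen, included Bgn (88.1 and 19.4 at day 0), Timp1 (47.6 and 21.2), Osmr (60.6 and 13.4) and Ptgs2 (53.3 and 27.1), genes of extracellular matrix, protease inhibition and inflammatory or cytokine response. All were higher in replicate 1. The 4 matched fibroblast markers of the list summed to 109 and 56.5 at day 0 and 6.79 and 25.3 at day 3, and their part in these regions was not tested. Kbtbd8, an adaptor of a ubiquitin ligase (75.2 and 38.3), was a further example at day 0. At day 3 they included Gpc1, a heparan sulfate proteoglycan (98.0 and 23.8), Car4, a carbonic anhydrase (65.8 and 31.6), Ntf3, a neurotrophin (78.3 and 5.29) and Amot, which acts in Hippo signalling (50.1 and 20.9).

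A smaller share of peak bases lay at the 3′ ends of transcripts in both day 3 libraries, and a larger share at their 5′ ends, though 2 libraries a day cannot carry this past a threshold. In regions of at least 1 kb, the last 10% of the length held 14.3% and 12.3% of peak bases at day 0 against 11.4% and 11.2% at day 3. The first 10% held 10.0% and 10.7% against 11.3% and 11.6%, and the middle 80% held 75.7% and 77.1% against 77.3% and 77.2%. The days did not overlap for any of the 3 segments, although they did for the middle 80% when each peak was placed by its midpoint (75.7% and 77.2% against 77.1% and 77.2%, exact permutation p = 0.667), and the day 0 libraries differed more from each other than the day 3 libraries did. With 2 libraries against 2, an exact two-sided permutation test cannot go below p = 0.333, the value all 3 shares had. The difference in the 3′ share was -1.97 percentage points and that in the 5′ share 1.09.

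The excess at 3′ ends lay close to the end. In regions of at least 20 kb, the density of peak bases in the last 250 bp was 3.69 and 2.88 times the mean density of the same regions at day 0 and 2.04 and 2.36 times at day 3. Between 2 and 5 kb from the end it was 1.67 and 1.57 against 1.48 and 1.46, so the days drew together with distance. At starts, the first 250 bp held less than the mean in every library. The days overlapped there (0.691 and 0.711 times at day 0 against 0.615 and 0.793 at day 3). By length, the 3′ share was lower in both day 3 libraries in regions of 5 to 20 kb (17.6% and 14.8% against 13.6% and 13.0%), of 20 to 100 kb (16.2% and 14.0% against 13.4% and 12.7%) and over 100 kb (10.9% and 9.21% against 8.50% and 8.44%). In regions of 1 to 5 kb the days overlapped (11.9% and 10.6% against 11.8% and 11.7%), and so did the 5′ share there (7.60% and 9.65% against 8.48% and 9.06%).

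**Figure D5:**
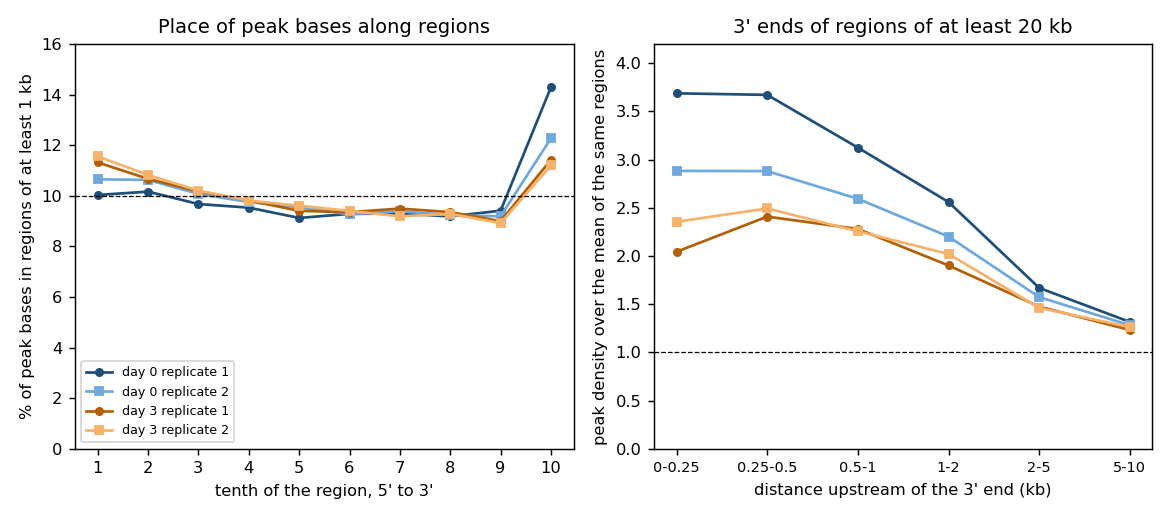
Left, the share of peak bases in each 10% step of transcribed regions of at least 1 kb, from 5′ to 3′, for the 4 libraries, with a dashed line at an even spread of 10%. Right, the density of peak bases by distance upstream of the 3′ end in regions of at least 20 kb, relative to the mean of the same regions. The day 0 libraries lie above the day 3 libraries in the last 10% and near the 3′ end.

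Counted region by region, the 3′ segments leaned the same way. These counts use the same peak bases of the same libraries, and segments are not replicates, so they add no independent support. Among 5890 last-10% segments tested, both day 3 libraries lay below both day 0 libraries in 1322 (22.4%) and above in 802 (13.6%), with a median log2 difference of -0.21. Among 5077 first-10% segments the counts were 735 below (14.5%) and 962 above (18.9%), with a median of 0.11, and among 10597 middle segments 1861 (17.6%) and 1985 (18.7%). limma called 0 of 21564 segments (0%), and 1477 had an unadjusted p under 0.05. The lowest adjusted p was 0.617. In 932 regions with at least 20 peaks in every library, the median 3′ share was 10.9% and 9.58% at day 0 and 8.93% and 8.93% at day 3. It was lower in both day 3 libraries in 220 of those regions (23.6%) and higher in 118 (12.7%). The median 5′ share of the same regions overlapped between days (9.43% and 9.97% against 9.57% and 11.2%), being higher in both day 3 libraries in 186 regions and lower in 118.

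Single genes illustrate how CLIP was placed. The 8 higher segments with the smallest p were all middle segments, among them those of Lama5, a laminin chain (69.8 and 51.9 against 273 and 266), and Rbm47, an RNA-binding protein (22.4 and 28.9 against 253 and 133). Of the 8 lower ones, those of Kit and Pdzd8 were last-10% segments. Kit, the receptor of stem cell factor, had 169 and 104 peak bases per Mb in its last 10% at day 0 and 21.0 and 23.5 at day 3 (-2.52 ± 0.50), and Pdzd8, a lipid-transfer protein of the endoplasmic reticulum, had 174 and 114 against 23.1 and 28.1. Tet1 carried much of its CLIP near the 3′ end at both days: the last 10% held 60.9% and 32.9% of its peak bases at day 0 and 38.2% and 34.3% at day 3, with overlap. In Esrrb the share was 19.2% and 16.7% against 5.61% and 14.1%, and in Dnmt3a 42.9% and 38.6% against 29.8% and 38.9%.

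Nuclear RNA of the lysates was measured with 1 RNA-seq library a day, so its differences are descriptions. Over 11243 regions tested and listed at both days, the log2 difference in CLIP and in FPKM plus 1 had a Spearman rho of 0.0759. FPKM of short or pooled rows can be very high, and over 10488 regions with FPKM under 1000 at both days, a set chosen once these high values had been noticed, the rho was 0.0835. The median RNA difference of that set was 0.15. Of 1882 regions at least 1 log2 unit below that median, both day 3 CLIP libraries lay below both day 0 libraries in 21.9% and above in 15.7%. Of 1676 regions at least 1 unit above it, the shares were 15.3% and 22.9%.

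Among the pluripotency, early differentiation and smallest-p regions described above, 36 had days that did not overlap in CLIP. Of these, 29 had FPKM above 0 and under 1000 at both days, a limit set after high values had been noticed. Within these 29, the RNA value moved the same way as CLIP in 24 and the other way in 5. No such share over all regions stands beside these counts. The regions were picked as list members or for their smallest p, so the counts describe these members alone. Over all 11243 regions tested and listed at both days the rho was 0.0759. FPKM at day 0 and day 3 was 55.1 and 10.2 for Zfp42, 36.8 and 4.31 for Tbx3, 62.8 and 9.65 for Yes1, and 2.68 and 22.1 for Fgf5. For Fgf4 it was lower by less (62.0 and 53.0). The 5 of opposite sign among the 29 included Utf1 (33.3 and 145), Pdzd8 (19.6 and 21.2) and Vangl2 (6.92 and 6.94), with lower CLIP. The others were Mkrn1 (887 and 42.8) and Nos1ap (41.2 and 24.7), with higher CLIP. Above the limit, Esrrb (1887 and 40465) and Tet1 (49451 and 78277) had lower CLIP but higher RNA values. G2e3 (42749 and 21.5) and 2610307P16Rik (96083 and 19.15) had higher CLIP but lower RNA values. Dpp6 (217 and 36511) and Trps1 (32664 and 117) moved the same way in both. Kcnh7, with 0.88 and 0, was not counted.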

How the data were processed

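The 4 peak lists deposited by the authors give a position, strand and score per peak and library. The score is the authors' own value, used here only to rank peaks within a list. The submitters' processing notes name mm9 as the build and, with no role or order, Cufflinks 2.1.1, bedtools 2.17.0, SAMtools 0.1.18, Novoalign 3.00.03, TopHat2 2.0.8, cutadapt 1.0 and Trim Galore 0.3.3. None of these entries says which program called the peaks. The authors deposited RNA-seq lists with 1 value per row, read here as FPKM because Cufflinks writes that unit; no header names it.

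Rows of both RNA-seq lists that overlapped on 1 strand (chromosomes 1 to 19 and X) were merged into regions, whose FPKM was that of the highest row. Same-strand peak bases per Mb of peaks were compared with limma 3.58.1 (R 4.3.3, trend) on log2(value + 1), Benjamini-Hochberg adjusted, at 0.05. Changes of low regions come out too small on this scale. The steps were tested on simulated data with 200 changed features of above-median level. The region test recovered 0% of changes of log2 1, 71.5% of log2 2 and 96.5% of log2 3. The segment test recovered 0%, 32.5% and 81.5%. False calls numbered 0, 12 and 15 for regions and 0, 5 and 15 for segments. The simulated spread depended on level alone, so spreads that differ between regions of like level were not covered. The rates may therefore be too high for these data, where Lama1, at -2.82, had an adjusted p of 0.662 in limma. A lack of calls does not show that changes were absent, near log2 1 or larger. Regions were named through RefSeq's GRCm38.p6 table by chromosome, strand, span and distances to neighbouring genes, with no coordinate converted, and 13606 regions took a name. Older symbols in the lists were matched through synonyms.

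Members and lists were chosen with earlier results of these data known. Named regions were list members, the 12 smallest p per direction among regions with peaks in all 4 libraries, the 12 highest levels, and the 8 segments with the smallest p per direction. Alternatives covered the pseudocount, filters, scaling, peak number, score, segment limits, a replicate block and single libraries left out. Same-numbered libraries were not shown to pair (correlation of deviations 0.0627). Calculations ran in Python 3.11.15 with SciPy 1.17.1, NumPy 2.4.6 and pandas 2.3.3, and plots in matplotlib 3.10.9.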

Additional observations from a re-analysis of the deposited data

How the results depend on the processing

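The test of regions and that of segments called 0 under every alternative pseudocount, filter, scaling, peak measure and variance setting, and with the replicate block. Leaving out 1 library gave 0 to 377 called regions (9 without day 0 replicate 1, 0 without day 0 replicate 2, 56 without day 3 replicate 1, 377 without day 3 replicate 2) and 11 to 282 called segments; the lone library of a day is then assumed to vary like the other day. These calls rest on fewer samples and are not counted as results. The 3′ share stayed lower at day 3 in all alternatives (-2.98 to -0.96 percentage points with a library left out), and the 5′ and body shares stayed higher (0.79 to 1.40 and 0.17 to 1.58), although with peak midpoints the days overlapped for the body share (exact permutation p = 0.667). For 60 of the genes named here, 16 of 538 values changed sign under the 9 alternatives that can move a difference (the block, the variance setting and the library filters cannot); the cause was not tested. Of these, 12 came from leaving out a library, and the values moved between -0.66 and 0.27 for Pou5f1, -0.16 and 0.52 for Malat1, -0.55 and 0.79 for Meg3, -0.91 and 0.53 for Rian, -0.13 and 0.0065 for Exoc4, -0.13 and 0.14 for Jarid2, and -1.33 and 0.70 for Nes. By number of peaks Malat1 was at -0.027, with equal numbers of highest scored peaks Meg3 was at -0.017 and Jarid2 at -0.085, and with equal medians Jarid2 was at -0.0094.

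List medians with a library left out were -1.15 to -0.70 for pluripotency, 1.47 to 3.53 for early differentiation, -0.36 to 0.56 for long noncoding RNAs, -0.49 to 0.0055 for small nucleolar RNA hosts, -0.42 to -0.046 for RNA-binding proteins, -0.19 to 0.077 for chromatin regulators and -0.08 to 0.24 for reference genes. With peaks required in all 4 libraries early differentiation was at 1.09, since Fgf5 and Otx2 then drop out, and by number of peaks reference genes were at -0.16. With at least 2 peaks in each library of the day, 96 regions had peaks at day 0 and not day 3, and 51 the reverse; with equal numbers of highest scored peaks the counts were 380 and 418. The Spearman rho of CLIP and RNA differences ranged from 0.0229 (without day 3 replicate 1) to 0.0985. Peak lists give no read depth, so regions near the lower limit of a list cannot be told from absent ones.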

Other observations

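Glycolysis genes, a list made after Eno1 and Gpi1 were seen among the regions with the smallest p, included 14 tested members of 17, none of which passed limma. Without Eno1 and Gpi1, both day 3 libraries lay above both day 0 libraries in 7 of the other 12 and below in 1, with a median log2 difference of 0.96. Over all 12325 regions tested, the shares were 18.1% above and 18.1% below. There is no test of the list, since it was chosen from these values. Slc2a1, a glucose transporter, had 141 and 258 peak bases per Mb at day 0 and 510 and 550 at day 3. Pkm, which makes pyruvate, had 361 and 410 against 691 and 680, and Ldha, which reduces pyruvate to lactate, had 44.9 and 55.8 against 115 and 97.4. Pgk1 had 0 and 29.8 against 54.1 and 237, and Pgam1 had no peak at day 0 and 22.5 and 56.0 at day 3. Gapdh was the 1 member lower without overlap, with 46.0 and 40.7 against 32.5 and 14.4. Days overlapped for Hk1, Pfkl, Pfkp and Aldoa. Summed over the 12 regions the level was 1162 and 1545 against 2113 and 2738, highest in day 3 replicate 2. Nuclear FPKM, from 1 library a day, was higher at day 3 for Slc2a1, Gpi1, Aldoa, Gapdh, Pgk1, Pgam1, Eno1, Pkm and Ldha. It was 24.3 and 49.1 for Pkm and 21.7 and 38.6 for Ldha. The value was lower for Hk1, Hk2, Pfkl, Pfkp and Tpi1, with 21.1 and 19.3 for Tpi1 and 12.1 and 7.73 for Hk2.

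CLIP was spread over many transcripts at both days. The 100 regions with the highest level held 12.2% and 12.2% of the peak bases in regions at day 0 and 12.7% and 10.9% at day 3. Named long noncoding RNAs held 1.73% and 1.5% against 1.96% and 1.31%, with overlapping days.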
